A study of Mus musculus with 4 samples.

Results

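The genes described here are the 4 FOS family genes (Fos, Fosb, Fosl1, Fosl2), the 3 JUN family genes (Jun, Junb, Jund) and 3 of the early growth response genes (Egr1, Egr2, Egr3) in cultured mouse spermatogonial stem cells. They were chosen by name, and every array probe that carried one of these names was taken. All 10 genes had probes, 13 in all, and all 13 passed the filter on dim probes, so that all 10 genes stood among the 18454 genes tested and no member was lost.

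Each of 4 two-colour arrays carried 1 sample of each group. In the tested culture, labelled -F+S, FGF2 was withdrawn at passage and SU5402, an inhibitor of the FGF receptors, was added, and the label gives 12 h. The cells in normal culture stayed in serum-free medium with FGF2 at 5 ng/ml, and no time is given for them. The labels describe the normal medium as containing GDNF at 40 ng/ml and mention no change of GDNF in the -F+S medium. In both groups the cells came from C57/BL6 x DBA/2 F1 mice, with an age label of day 5, and the design text calls the 4 samples of each group biological replicates. The labels do not say whether replicates came from separate animals or from passages of 1 culture, nor do they mention a feeder layer. If the cultures were not separate, the p-values measure only the spread between these samples, which may be technical.

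FOS and JUN proteins are leucine zipper transcription factors that bind DNA in pairs, together called AP-1. FOS proteins need a JUN or another zipper partner, whereas JUN proteins can also pair with each other. The EGR proteins bind GC-rich sites through zinc fingers. Transcription of Fos, Egr1, Egr2 and Jun is switched on within minutes of growth factor stimulation, without new protein synthesis, and fades quickly. For Fos and the EGR genes this runs largely through ERK and the ternary complex factors that sit with SRF on CArG boxes, and for Jun also through AP-1 sites in its own promoter. FGF receptors feed into ERK, and in spermatogonial cultures GDNF is known to raise Egr2 and Egr3.

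Promoter sequences are shown so that known elements of such promoters can be seen beside the values. They were taken for Fosl2 and Jun, which had the highest ratios, for Egr2, which was called lower, and for Fos, which was not called. They are the 110 bases before an annotated start from RefSeq on the GRCm38.p6 build, read on the gene's own strand: chr5:32136362-32136471 (plus) for Fosl2, chr4:95052223-95052332 (minus) for Jun, chr10:67537759-67537868 (plus) for Egr2 and chr12:85473780-85473889 (plus) for Fos. Capitals mark a match to one of 8 motifs searched.
Fosl2: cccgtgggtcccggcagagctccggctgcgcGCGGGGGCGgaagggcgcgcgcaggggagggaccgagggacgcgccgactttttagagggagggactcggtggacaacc
Jun: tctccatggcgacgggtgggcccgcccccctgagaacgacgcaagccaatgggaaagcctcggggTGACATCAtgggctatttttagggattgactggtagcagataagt
Egr2: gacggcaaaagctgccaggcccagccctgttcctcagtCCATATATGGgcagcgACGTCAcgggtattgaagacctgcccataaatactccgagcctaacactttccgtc
Fos: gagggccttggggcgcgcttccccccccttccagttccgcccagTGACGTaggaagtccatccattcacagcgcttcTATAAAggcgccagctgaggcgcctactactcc

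The motifs were searched on both strands in the 250 bases before the start. The capitals in Egr2 are a CArG box, to which SRF binds, at -72 to -63, and ACGTCA at -56 to -51, which is the reverse strand of TGACGT, the short form of the cyclic AMP response element. In Fos they are TGACGT at -66 to -61 and TATAAA, the TATA box, at -33 to -28. No CArG box stood in the 250 bases searched for Fos. Bases further upstream were not searched, so the absence of a motif here does not mean that the gene lacks it. Jun carried TGACATCA, an AP-1 site of the kind that JUN and ATF2 bind, at -45 to -38. Fosl2 carried GCGGGGGCG, a form of the EGR site, at -79 to -71, and Fosb carried the same letters at -50 to -42. Of 32851 mouse promoters of this length, 1.47% held a CArG box, 6.47% TGACGT, 12.4% TATAAA, 2.93% TGACATCA and 2.57% GCGGGGGCG. The longer TGACGTCA, which contains TGACGT, the AP-1 site TGACTCA and the EGR site GCGTGGGCG stood in 1.55%, 4.46% and 0.536%. Promoters of 7 of the 10 members were used, and those of Junb and Jund held none of the 8 motifs in this window. No promoter was used for Fosl1, Egr1 or Egr3, and the search left out members on chromosome 18, where Egr1 lies. A match describes letters only, and for Egr2 the promoter shown is that of the third of 5 listed starts. The first listed start of Egr2 held none of the 8 motifs, and the second held a CArG box of other letters without ACGTCA.

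The AP-1 and EGR genes did not move as a block. At 12 h, Fosl2 rose 3.48-fold and Jun 2.01-fold in -F+S cells relative to normal culture, and Egr1 rose 1.15-fold. Fosl1 fell 1.58-fold, Egr2 fell 1.28-fold and Jund fell 1.19-fold. Fos, Fosb, Junb and Egr3 did not pass the test. The test was limma's moderated test of the log2 ratio of each array against 0, with Benjamini-Hochberg adjustment over all 18454 genes and a threshold of 0.05.

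With 3 members higher and 3 lower, 6 of 10 were called, against 68.4% of all genes tested (37.5% higher and 30.9% lower). The share of members called was therefore near that of the whole array. The median log2 ratio of the 10 members was -0.019, against 0.023 over all genes tested. Over all genes tested, 6924 were called higher and 5705 lower (5598 and 7854 on the scanner's own log ratios, 5503 and 3575 where arrays were centred on the median instead of by loess), with changes of at least 2-fold in 2151 of the higher and 306 of the lower genes. On each array 26613 to 28496 probes were well above background in -F+S cells and 25533 to 27891 in normal cells, and the 4 arrays' ratios correlated at 0.907 to 0.948 across genes, which are not independent replicates. The arrays lay on 1 slide and were read in 1 scan. The -F+S sample was always green and the normal sample always red, and the treatment and a dye effect particular to a gene cannot be told apart. In these bulk samples fewer cells of a type and less RNA per cell cannot be told apart either.

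**Figure D1:**
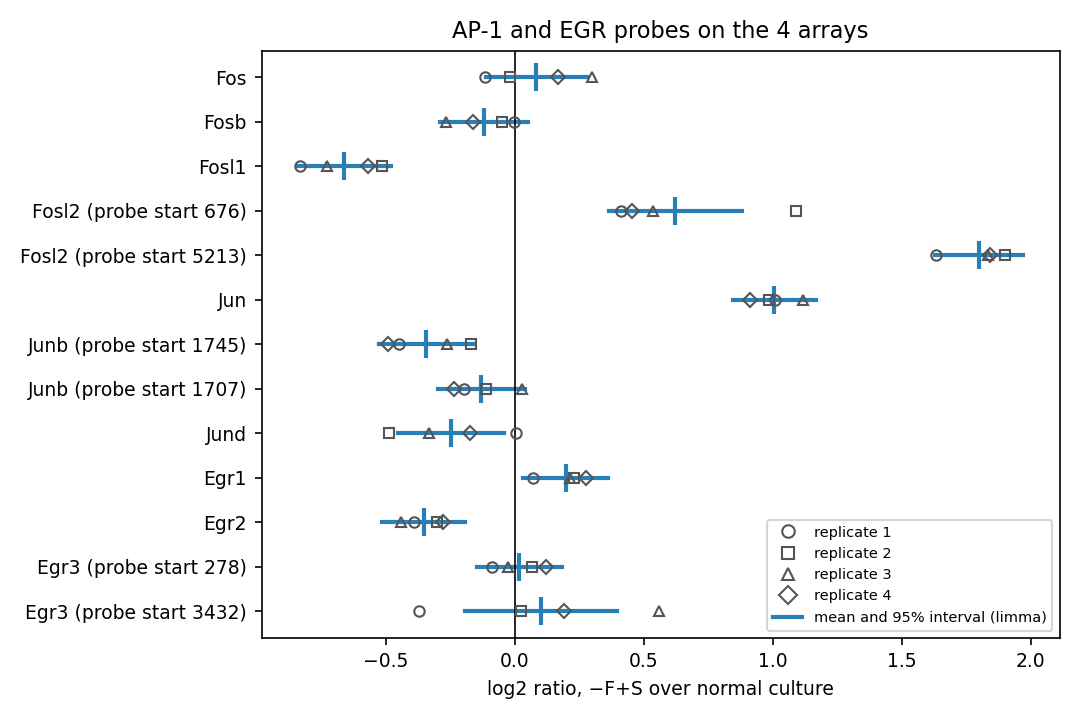
Log2 ratio of -F+S over normal culture for every member probe (rows, with the gene and the probe's position in its transcript), 1 point for each of the 4 arrays and a bar for the mean with its 95% confidence interval. Fosl2 and Jun lie to the right of 0 and Fosl1 and Egr2 to its left on all 4 arrays, while the points of Fos and Egr3 fall on both sides.

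Fosl2 encodes FRA-2, a FOS family protein that lacks the strong activation domain of FOS. The brighter of its 2 probes lies at chr5:32459624-32459683 in the mm9 build that the files use. Its log2 intensity on replicates 1 to 4 was 12.72, 12.81, 12.45 and 12.71 in -F+S cells, against 11.09, 10.91, 10.62 and 10.87 in normal cells. Every -F+S value lay above every normal value. The log2 ratio was 1.80 ± 0.12 (SD, n = 4; SE 0.073, 95% CI 1.64 to 1.97, limma adjusted p = 5.46e-08), which is higher than in 96.7% of all genes tested.

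The other Fosl2 probe, at chr5:32455088-32455147, read 8.13, 8.53, 8.27 and 8.02 in -F+S cells, against 7.72, 7.44, 7.74 and 7.57 in normal cells, and the groups again did not overlap. Its log2 ratio was 0.62 ± 0.32 (SD, n = 4; limma adjusted p = 0.00101 over 27730 probes), with 1.09 on replicate 2 and between 0.41 and 0.53 on the other arrays. The 2 probes of Fosl2 thus gave the same direction and fold changes of 3.48 and 1.54.

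Fosl1 encodes FRA-1, the close relative of FRA-2, whose gene is known in other cells to depend on sustained ERK activity and on AP-1 itself. Its probe, at chr19:5455496-5455555, read 11.17, 11.28, 11.35 and 11.34 in -F+S cells, against 12.00, 11.80, 12.08 and 11.91 in normal cells. All 4 arrays had the lower value in -F+S cells and the groups did not overlap. The log2 ratio was -0.66 ± 0.15 (SD, n = 4; SE 0.077, 95% CI -0.84 to -0.49, limma adjusted p = 5.38e-05), at percentile 6.82 of all genes tested. The FRA-1 and FRA-2 genes were thus called in opposite directions on the same arrays.

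Fos, the classic growth factor responsive gene, has its probe at chr12:86817900-86817959. It read 12.85, 12.86, 12.72 and 12.92 in -F+S cells, against 12.97, 12.88, 12.42 and 12.76 in normal cells. The groups overlapped, and the ratio was above 0 on 2 arrays and below 0 on the other 2. Its mean log2 ratio was 0.083 ± 0.19 (SD, n = 4; 95% CI -0.11 to 0.27, limma adjusted p = 0.40). Fos was printed as 10 spots on each array, and the SD among them was 0.012 to 0.024, so the spread between arrays was wider than the spread between spots.

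Fosb, whose product takes the place of FOS in AP-1 pairs, has its probe at chr7:19888477-19888536. Fosb had a log2 ratio of -0.12 ± 0.12 (SD, n = 4; 95% CI -0.29 to 0.045, limma adjusted p = 0.169). The ratio was below 0 on all 4 arrays, between -0.27 and -0.0040, and 73.5% of all genes had 1 sign on all arrays. On the scanner software's own log ratios, which are not centred in the same way, Fosb had -0.35 and passed the threshold (limma adjusted p = 0.00707).

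**Figure D2:**
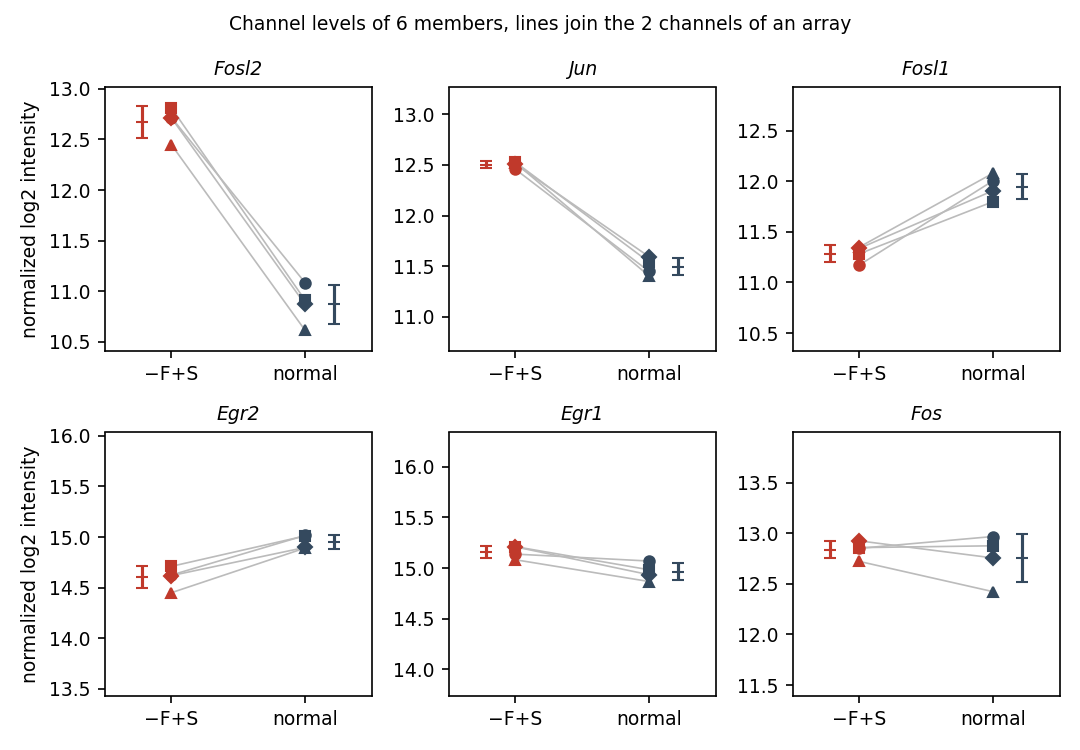
Log2 intensity in -F+S and normal cells for the probes that stand for Fosl2, Jun, Fosl1, Egr2, Egr1 and Fos. A line joins the samples of an array. Panels have different offsets and equal spans, and levels are not comparable between panels. The groups of Fosl2 and Jun have no overlap, those of Fosl1, Egr1 and Egr2 are separated with smaller gaps, and those of Fos overlap. The groups also overlap for Fosb, Junb, Jund and Egr3, which are not drawn.

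Jun encodes the most widely used JUN partner, and the JNK kinases raise its activity. Its probe, at chr4:94715864-94715923, read 12.46, 12.53, 12.52 and 12.51 in -F+S cells, against 11.45, 11.54, 11.40 and 11.59 in normal cells. All -F+S values lay above all normal values. Jun had a log2 ratio of 1.01 ± 0.085 (SD, n = 4; SE 0.069, 95% CI 0.85 to 1.16, limma adjusted p = 1.50e-06), higher than in 88.5% of all genes tested. Jun was also printed as 10 spots, with an SD of 0.014 to 0.028 among them.

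Junb encodes a JUN protein that is a weaker activator than JUN on many targets. It had 2 probes, which overlap in position. The brighter one gave a log2 ratio of -0.13 ± 0.12 (SD, n = 4; 95% CI -0.29 to 0.035, limma adjusted p = 0.143), with values of -0.20, -0.11, 0.026 and -0.24 on replicates 1 to 4. The other gave -0.34 ± 0.15 (SD, n = 4; limma adjusted p = 0.00440 over probes), with values of -0.45, -0.17, -0.26 and -0.49, and its channel levels did not overlap between groups. Junb was thus not called by the probe that stands for it and called lower by its neighbour.

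Jund encodes the JUN protein that is present in resting cells and responds least to growth factors. Its probe, at chr8:73224436-73224495, read 16.90, 16.38, 16.67 and 16.61 in -F+S cells, against 16.89, 16.87, 17.00 and 16.79 in normal cells. The groups overlapped, because replicate 1 had nearly the same value in both channels. Jund had a log2 ratio of -0.25 ± 0.21 (SD, n = 4; 95% CI -0.45 to -0.046, limma adjusted p = 0.0330). This call was lost when replicate 2 (-0.17, adjusted p = 0.167), replicate 3 (-0.22, adjusted p = 0.107) or replicate 4 (-0.27, adjusted p = 0.0521) was left out of the limma fit, and on the scanner's own log ratios (-0.095, adjusted p = 0.433). With median centring in place of loess it was -0.69.

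Egr1 encodes the best known of the EGR factors, which also raises its own inhibitors, the NAB corepressors. Its probe, at chr18:35024395-35024454, read 15.14, 15.21, 15.08 and 15.21 in -F+S cells, against 15.07, 14.98, 14.87 and 14.93 in normal cells. The groups did not overlap, though the lowest -F+S value and the highest normal value lay close to each other. Egr1 had a log2 ratio of 0.20 ± 0.089 (SD, n = 4; 95% CI 0.039 to 0.35, limma adjusted p = 0.0305). Median centring in place of loess brought it to 0.0017 (limma adjusted p = 0.994). The call was also lost without replicate 2 (0.19, limma adjusted p = 0.104), without replicate 3 (0.19, adjusted p = 0.0723) or without replicate 4 (0.17, adjusted p = 0.0844).

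Egr2, also called Krox20, acts in Schwann cells and the hindbrain as well as in the early response. Its probe, at chr10:67004758-67004817, read 14.62, 14.71, 14.45 and 14.62 in -F+S cells, against 15.02, 15.01, 14.89 and 14.90 in normal cells. Every -F+S value was below every normal value. The log2 ratio was -0.35 ± 0.076 (SD, n = 4; SE 0.068, 95% CI -0.51 to -0.20, limma adjusted p = 0.00137), and the SD among its 10 spots on an array was 0.020 to 0.033.

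Egr3, whose product overlaps in function with EGR1 in neurons and lymphocytes, had 2 probes at chr14:70481979-70482038 and chr14:70478827-70478886. The brighter read 10.79, 10.80, 10.60 and 10.92 in -F+S cells, against 11.16, 10.78, 10.04 and 10.73 in normal cells. The ratio ran from -0.37 on replicate 1 to 0.56 on replicate 3, with a mean of 0.10 ± 0.39 (SD, n = 4; 95% CI -0.19 to 0.39, limma adjusted p = 0.503). Fos likewise had its lowest ratio on replicate 1 and its highest on replicate 3. The dimmer probe of Egr3 was well above background on 3 of 4 arrays in -F+S cells and on 2 of 4 in normal cells, and it gave a log2 ratio of 0.018 (limma adjusted p = 0.838).

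Across the 13 member probes, 8 were called, against 66.4% of all 27730 probes. The levels of the -F+S and normal samples did not overlap for 7 of the 13, against 58.9% of all probes.

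Fosl1, Fosl2, Jun and Egr2 kept their calls under every alternative normalization, filter and left-out replicate that was run. The log2 ratio lay between -0.87 and -0.58 for Fosl1 and between 0.84 and 1.08 for Jun. It lay between -0.51 and -0.32 for Egr2. Fosl2 ran between 0.62, which is its dimmer probe, and 1.88. Fos and Egr3 were called under none of them, between -0.092 and 0.15 for Fos and between -0.10 and 0.26 for Egr3.

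**Figure D3:**
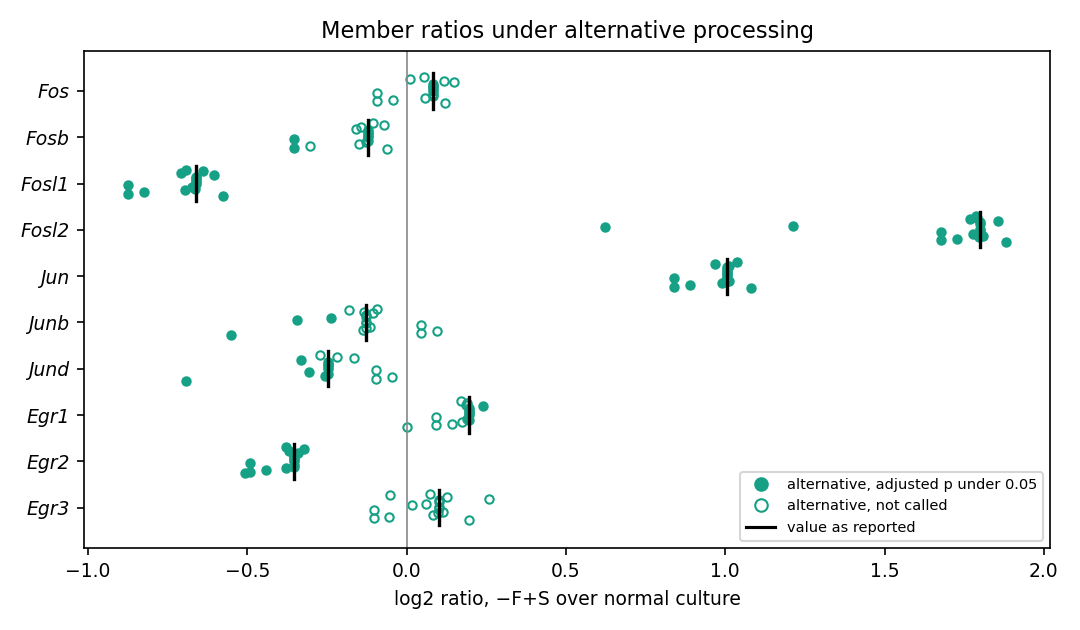
Log2 ratio of -F+S over normal culture for each member (rows) with a bar for the reported value and a point for each alternative, filled where the adjusted p was under 0.05. The points of Fosl2, Jun, Fosl1 and Egr2 are all filled, those of Fos and Egr3 are all open, and those of Fosb, Junb, Jund and Egr1 are mixed.

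Genes whose log2 ratios over the 4 arrays lay nearest to those of Fosl2, by Euclidean distance, were Sbspon (distance 0.052, mean log2 ratio 1.81), Pcdhb20 (0.075, 1.81) and Lrrn2 (0.10, 1.85). Nearest to Fosl1 were Clstn3 (0.088, -0.64), Pcid2 (0.089, -0.65) and Zswim3 (0.090, -0.67).

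The other zipper proteins that pair with FOS or JUN, or are related to them, were also split. Of 14 tested, 6 were called higher, 4 lower and 4 were not called, with a median log2 ratio of 0.017, which was -0.15 on the scanner's own log ratios. The share over all genes tested, to be read beside the counts of this and each later list, was 37.5% higher and 30.9% lower. Maff, a small MAF protein, rose by 1.25 on the log2 scale (limma adjusted p = 6.57e-07) and Jdp2, a repressor that pairs with JUN, by 1.26. Crem, a cyclic AMP responsive regulator with a male germ line form, rose by 0.70 and its second probe gave 0.27.

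Batf3 and Batf, the JUN partners of lymphoid and dendritic cells, fell by 1.01 and 0.64. Mafg fell by 0.43 (second probe -0.51). Atf7 was called lower at -0.27, a call that its second probe (0.11, adjusted p = 0.248) and median centring did not carry. Atf3, a stress-induced repressor, had -0.10 and was not called (limma adjusted p = 0.231). Maf was not called on its brightest probe (0.043), while its second probe gave 2.86. Atf3 and Maf were chosen after their values were seen.

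Among 36 other immediate early genes, 35 were tested: 16 were called higher, 10 lower and 9 were not called, with a median log2 ratio of 0.18. This median was -0.013 on the scanner's own log ratios, which shifted the median of all genes by -0.15. Ccn2 and Ccn1, matrix proteins induced by SRF and YAP, rose by 1.94 (limma adjusted p = 1.10e-07) and 1.90. Klf6, a zinc finger factor, rose by 1.67 (second probe 1.25), and the orphan receptor Nr4a2 rose by 1.24.

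Arc, a synaptic gene and SRF target, fell by 0.74 (limma adjusted p = 1.68e-05). Irf1, an interferon response factor, fell by 0.57 (second probe -0.71, and -0.89 with median centring). Ptgs2, the inducible cyclooxygenase, fell by 0.48 (second probe -0.47). Zfp36, which destabilises cytokine messages, was called lower at -0.40, but its second probe gave 0.020 and the call was lost with median centring (-0.34, limma adjusted p = 0.066).

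Several genes that respond to growth factors together with Fos were not called, and these were chosen after their values were seen. Myc had a log2 ratio of 0.18, Nr4a1 -0.077 and Ier2 0.057, although the second probe of Ier2 gave 0.38 (limma adjusted p = 0.00149). Egr4, the fourth EGR gene, was called lower at -0.19 (limma adjusted p = 0.0335).

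**Figure D4:**
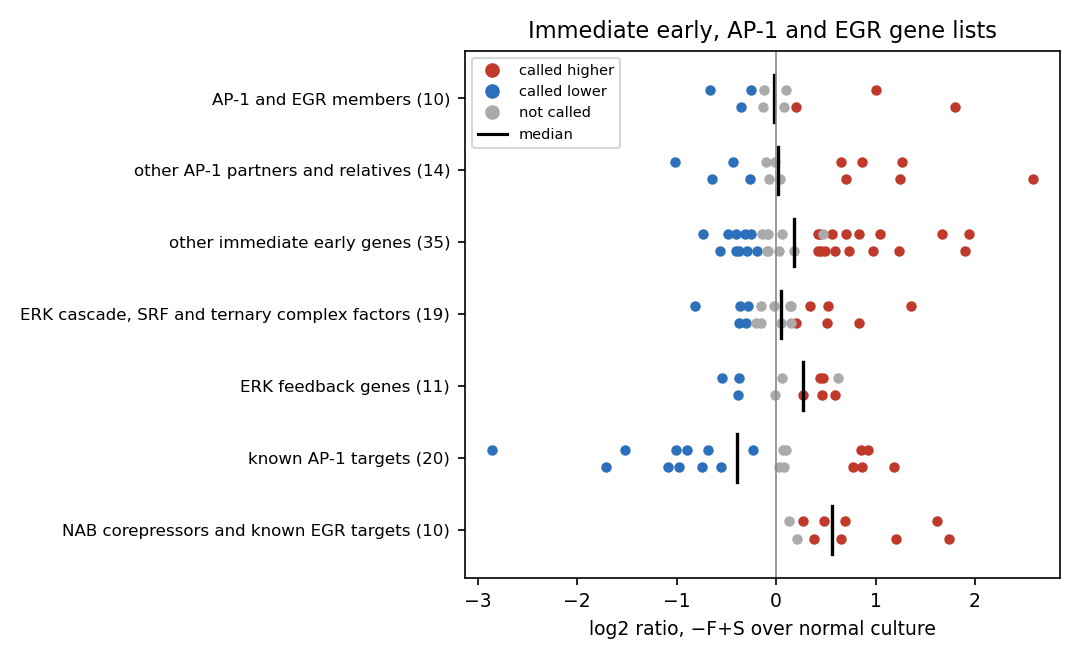
Log2 ratio of -F+S over normal culture for every tested gene of the lists drawn (rows, with the number tested). Points are coloured by call, with the list's median as a bar. The row labelled ERK feedback genes also holds the ETS factors Etv1, Etv4 and Etv5. The JNK and p38 kinases and the cell type markers are not drawn. The members, their relatives and the other immediate early genes spread to both sides of 0, the known AP-1 targets lie mostly below it and the known EGR targets above it.

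The kinases that carry ERK signals to these promoters, with SRF and its partners, gave 6 higher, 5 lower and 8 not called of 19 tested, with a median of 0.055. On the scanner's own log ratios 4 were called higher and 7 lower, with a median of -0.15. Rps6ka2, an RSK kinase downstream of ERK, rose by 1.36 (limma adjusted p = 5.86e-07). The ternary complex factor Elk3 rose by 0.84 (second probe 0.62) and its relative Elk4 by 0.52, though the second Elk4 probe gave 0.0032. Rps6ka4, a kinase of the MSK type, rose by 0.52.

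Map2k1, the gene of MEK1, fell by 0.81 (limma adjusted p = 0.00293). Mapk7, the gene of ERK5, fell by 0.37 (second probe -0.47). Rps6ka3 was called lower at -0.30, a call that was lost with median centring (-0.27, limma adjusted p = 0.18).

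Another list held genes that ERK signalling is known to induce, both feedback inhibitors and the ETS factors Etv1, Etv4 and Etv5. Of 11 tested, 5 were called higher, 3 lower and 3 were not called, with a median of 0.27. This balance turned with the probe used: the median was -0.39 on second probes, with 1 gene called higher and 4 lower, and -0.011 as a mean of kept probes. Dusp4, an ERK phosphatase, rose by 0.60, but its second probe gave 0.025. Etv1, an ETS factor, rose by 0.48, and the receptor signalling inhibitor Spry2 by 0.46 (second probe 0.21), a call that was lost on the scanner's own log ratios (0.28, limma adjusted p = 0.062). Spred1 was called higher at 0.44 by the probe that stands for it and lower at -0.39 by the second (limma adjusted p = 0.00189).

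Il17rd, an inhibitor of FGF signalling, fell by 0.54 (second probe -0.44). Spred2 and Etv4 were called lower at -0.37 and -0.38, without the same call from the second probe of Spred2 (0.20) or for Etv4 with median centring (-0.33, limma adjusted p = 0.064). Spry4 (0.63), Etv5 (0.056) and Dusp6 (-0.011) were not called, and the second probes of Spry4 and Etv5 gave -0.47 and -0.57 with limma adjusted p-values of 0.000463 and 0.000458. Spry4, Etv5 and Dusp6 were chosen after their values were seen.

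Known AP-1 targets, taken from work in other cell types, were lower more often than higher on the brightest probes: 5 of 20 were called higher, 11 lower and 4 were not called, with a median of -0.39. Ccl2, a chemokine that draws in monocytes, fell 7.24-fold (log2 ratio -2.86, limma adjusted p = 7.98e-09). The matrix protease gene Mmp9 fell by 1.71 (second probe -1.50), the protease inhibitor gene Timp1 by 1.09 (second probe -0.79) and Spp1, osteopontin, by 1.00. Spp1 had -1.63 with median centring.

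Other AP-1 targets moved up. Mmp13, a collagenase, rose by 1.19. Vegfa rose by 0.86 (second probe 1.39) and Plau, urokinase, by 0.78 (second probe 0.28). The median of the AP-1 targets that have a second kept probe was 0.30 on those second probes, with 5 called higher and 3 lower.

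Of 10 NAB corepressors and known EGR targets, 8 were called higher, none lower and 2 not, with a median of 0.57; the limma fit gave no lower call here at an adjusted p under 0.05, and all 10 ratios were above 0. With both channels required to be well above background on all arrays, which leaves out Fgf2, 7 were called higher and the median was 0.48. The second probe of Pdgfb, named after its values were seen, gave -0.40 (limma adjusted p = 0.00318). F3, tissue factor, rose by 1.62 (second probe 1.41), Thbs1, thrombospondin, by 1.74 (second probe 1.91) and Pdgfa by 1.21 (second probe 1.20). Fgf2, the growth factor that was withdrawn, rose by 0.65, with its probe well above background in normal cells on 1 of 4 arrays and a log2 ratio of 1.24 on the scanner's own values. Nab1 rose by 0.69 and Nab2 was not called (0.21, limma adjusted p = 0.150).

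Markers of other cell types moved with the treatment. Sertoli cell markers were called higher for 12 of 12 genes (median 2.30), and their mean log2 level was 12.94 to 13.05 in -F+S samples against 10.66 to 10.87 in normal samples. Fibroblast and feeder markers were called higher for 13 of 14 (median 1.56), at 16.03 to 16.13 in -F+S samples against 14.43 to 14.57 in normal samples. Macrophage markers were called lower for 10 of 12 (median -0.88), at 9.80 to 9.88 in -F+S samples against 10.81 to 10.89 in normal samples.

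Germ cell markers were called lower for 11 of 19 and higher for 2 (median -0.24), at 12.56 to 12.68 in -F+S samples against 12.87 to 12.93 in normal samples, and all 19 were well above background on every array in both groups. Endothelial markers were called higher for 3 of 8 and lower for 4 (median -0.093), at 10.05 to 10.15 in -F+S samples against 9.95 to 10.08 in normal samples. Amh and Fshr among the Sertoli markers, Cx3cr1 among the macrophage markers and Tek among the endothelial markers were not well above background on all arrays. Fshr was well above background on 4 arrays in -F+S cells and on 1 in normal cells. Cx3cr1, the macrophage marker called higher, was so on 3 and 0. With both channels required to be well above background on all arrays, 10 Sertoli markers were called higher (median 2.34) and 0 macrophage markers. FOS, JUN and EGR genes are known to be inducible in many cell types. The part of these shifts in the ratios of Fosl2, Jun, Fosl1, Egr2 and the gene lists was not tested.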

How the data were processed

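RNA of 4 -F+S and 4 normal samples was measured on 4 two-colour Agilent arrays, with -F+S cells in Cy3 (green) and normal cells in Cy5 (red) on each. Spot intensity values, not normalized, were deposited by the authors, read with Agilent Feature Extraction 10.5.1.1 per the submitters' processing notes. The deposited LogRatio is log10 of red over green from the scanner software, per the file headers; 16.9% to 21.1% of its values per array were exactly 0. The deposited series matrix holds log2 values without a stated scale. At least 99.7% of its values per array equalled log2 of green over red processed signals, within 0.001, with no centring (column medians -0.26, 0.011, 0.11 and -0.058).

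Of 45018 spots per array, 1639 were control spots. Normexp (offset 50) was run on mean signals with the median local background, ratios were normalized by loess within arrays, flagged spots (141 to 171 per array) were left out, spots were averaged per probe, and a probe was kept if 1 channel was well above background on 3 or more of the 4 arrays (27730 of 41174 probes). No spot was saturated. The number of arrays limits the precision. The brightest kept probe stood for a gene. Names were updated through RefSeq tables for 25097 probes by accession and 7973 by symbol; 8104 kept the name in the file. Probe positions are those of the files (mm9).

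The log2 ratio was tested against 0 with limma 3.58.1 (R 4.3.3, with version 1.17.8 of the package data.table), in a two-sided test with Benjamini-Hochberg adjustment over genes or over probes, called at an adjusted p under 0.05. The code was tested on simulated data. All members were named; from each other list, up to 4 called genes per direction with the smallest adjusted p were taken, exceptions are marked, and some of these genes are not reported here; the JNK and p38 list is given among the observations. Members and lists were chosen with earlier results of these data known. Alternatives covered normalization, background correction, filters, probes, the channel model and left-out replicates.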

Additional observations from a re-analysis of the deposited data

How the results depend on the processing

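Of the members, Fosl1, Fosl2, Jun, Egr2, Fos and Egr3 kept their side of the threshold under every alternative run, and no called member changed direction. The balance of higher and lower calls over all genes turned, with 5598 higher and 7854 lower on the scanner's LogRatio and 5593 and 7851 on the series matrix. On the scanner's LogRatio, Fosb was -0.35 (adjusted p = 0.00707), Jund -0.095 (0.433) and Egr1 0.091 (0.314); the series matrix gave -0.35 (0.00711), -0.095 (0.433) and 0.091 (0.314). Processed signals centred on the median gave -0.046 (0.803) for Jund and 0.14 (0.419) for Egr1, and a normexp offset of 10 gave 0.17 (0.0670) for Egr1. Median centring gave -0.55 (0.00534) for Junb, 0.0017 (0.994) for Egr1 and 3575 genes lower in all (5503 higher). Junb was -0.34 (0.00567) on its second probe and -0.24 (0.0142) as a mean of probes. Second probes gave 1 member higher and 1 lower of the 3 members that have one, and 2481 genes higher and 1780 lower of 6608 in all. Without single replicates Jund ranged from -0.33 to -0.17 and Egr1 from 0.17 to 0.24. Each ratio pairs the samples of an array; with 8 channel values and no replicate block, Jund was -0.25 (adjusted p = 0.0544), 6681 genes were higher and 5470 lower, and no other member changed its call. Of the called genes, 54.8% were higher in the reported fit, 41.6% on LogRatio and on the series matrix, 47.3% on centred processed signals and 60.6% with median centring. The causes were not tested. Dim probes, such as the second probe of Egr3, limit what can be measured.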

Other observations

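The list of JNK and p38 kinases, which phosphorylate JUN and ATF2, also held kinases that act above them, such as Map2k6 and Map3k1. These genes were split in -F+S cells relative to normal culture: 3 of 12 were called higher, 7 lower and 2 were not called. Over all genes 37.5% were called higher and 30.9% lower. The median log2 ratio of the list was -0.25. On the second probes of those that have one, the median was 0.051, with 1 called higher and 2 lower. The p38 genes Mapk12 and Mapk11 fell by 0.92 (second probe -0.87) and 0.87, the JNK3 gene Mapk10 by 0.72 (second probe -0.32) and the p38 activator Map2k6 by 0.59. Map3k1, which acts above JNK, rose by 0.68, the p38 gene Mapk13 by 0.66 and the JNK2 gene Mapk9 by 0.61 (second probe 0.30). Mapk8, the JNK1 gene, was not called (0.0099), and Mapk14, the main p38 gene, was called lower at -0.26 (limma adjusted p = 0.0115); these are named with their values already known.

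Different probes of a gene could be called in opposite directions. Among 6608 genes with a second kept probe, 342 were, and 3 of these were among the 88 listed genes with one. Ier5l had -0.31 on its brightest probe and 0.75 on its second, Spred1 0.44 and -0.39, and the endothelial marker Flt1 -0.27 and 0.41. What distinguishes the probes was not tested.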
